A study of Rattus norvegicus with 12 samples.

Results

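The cerebellum of male Wistar rats given acrylamide by mouth was compared with that of rats given the vehicle, over the 4 cerebellum arrays of a series of 12 that also covered spinal cord and sciatic nerve. The members are the 2 arrays titled cerebellum with acrylamide treatment and the 2 titled cerebellum with saline control. On these arrays, every probe set (a group of short oligonucleotides that reports a transcript) with a mean signal above 110 was compared, which left 18905 of 31099 probe sets and 10062 genes with a single symbol. Each group was 2 Affymetrix arrays, and each array was a pool of tissue from 2 rats, so the spread described here is that between pools.

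The rats received 30 mg/kg of acrylamide a day, or the vehicle, by oral gavage. The vehicle is called saline in the sample names and solvent in the treatment protocol. The age at the start is 25 days in the protocols and 3 weeks in the design text. Dosing lasted 21 days by the design text, while the protocol puts tissue collection 21 days after treatment, so the time between the last dose and collection is not settled. RNA came from bulk cerebellum tissue, so in every result below a lower share of a cell type and less RNA per cell cannot be told apart.

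Acrylamide is a small electrophile that binds cysteine thiols and is removed mainly by conjugation to glutathione. The cerebellum holds a very large population of granule neurons, which excite Purkinje cells, whose inhibitory axons are the output of its cortex. Bergmann glia, a kind of astrocyte, wrap the Purkinje cell dendrites, and microglia are the resident macrophages. Immediate early genes are transcribed in neurons within minutes of activity, through factors such as CREB that need no new protein and that bind the cAMP response element.

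The cerebellum arrays carried the pattern of their labelled tissue. Pcp2, a Purkinje cell protein gene, had signals of 12945 to 13909 on the cerebellum arrays and of 54.2 to 2294 on the 8 others. Gabra6, a GABA receptor subunit typical of granule neurons, ran from 12267 to 13645 there, against 0.945 to 2537. The upper ends of these ranges on the 8 others lay far above the filter, as did that of Neurod1 on the granule neuron list (18.8 to 2585). The source of that signal in cord or nerve was not tested. The 4 array medians lay between 195 and 197. Precision is limited by having 4 arrays.

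Few transcripts differed by much between acrylamide and saline cerebellum. Nr4a3, an orphan nuclear receptor gene of the immediate early class, had the probe set (1369067_at) that passed limma with Benjamini-Hochberg adjustment at 0.05, so 1 of 18905 (0.00529%) was called. That count was 0 with no filter or with the spread of all 12 arrays. At an unadjusted p under 0.05, 481 probe sets (2.54%) were higher with acrylamide and 518 (2.74%) lower, 5.28% in all. The 2 groups did not overlap for 33.7% of probe sets, with the acrylamide pair on top for 17.1% and underneath for 16.6%. Over all, 49.9% of probe sets were higher and 50.1% lower. The members of a gene list are read against the shares over 10062 genes with 1 probe set each. Of these genes, 51.5% were higher and 48.5% lower, the acrylamide arrays were on top without overlap for 18.9% and underneath for 16%, or 34.9% together, and 5.12% had an unadjusted p under 0.05 (2.71% higher and 2.41% lower).

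Effect sizes were small. The median size of a log2 difference was 0.089 on the log2(signal + 16) scale, 89.9% of probe sets differed by less than 1.2-fold, and 99% by less than 0.57 on that scale. In all, 174 probe sets were at least 1.5-fold apart, 154 of them with groups that did not overlap (0.815%), 66 higher (0.349%) and 88 lower (0.465%), and 26 were at least 2-fold apart without overlap (0.138%), 11 higher (0.0582%) and 15 lower (0.0793%). Of the 66 higher, 30 had a saline mean under the filter's 110, and of the 88 lower, 26 had an acrylamide mean under it, so these passed the filter through the group where they were high. The size fell with signal: the median was 0.14 at signals of 110 to 220 and 0.053 above 1760, where 2 of 2621 probe sets reached 1.5-fold.

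**Figure D1:**
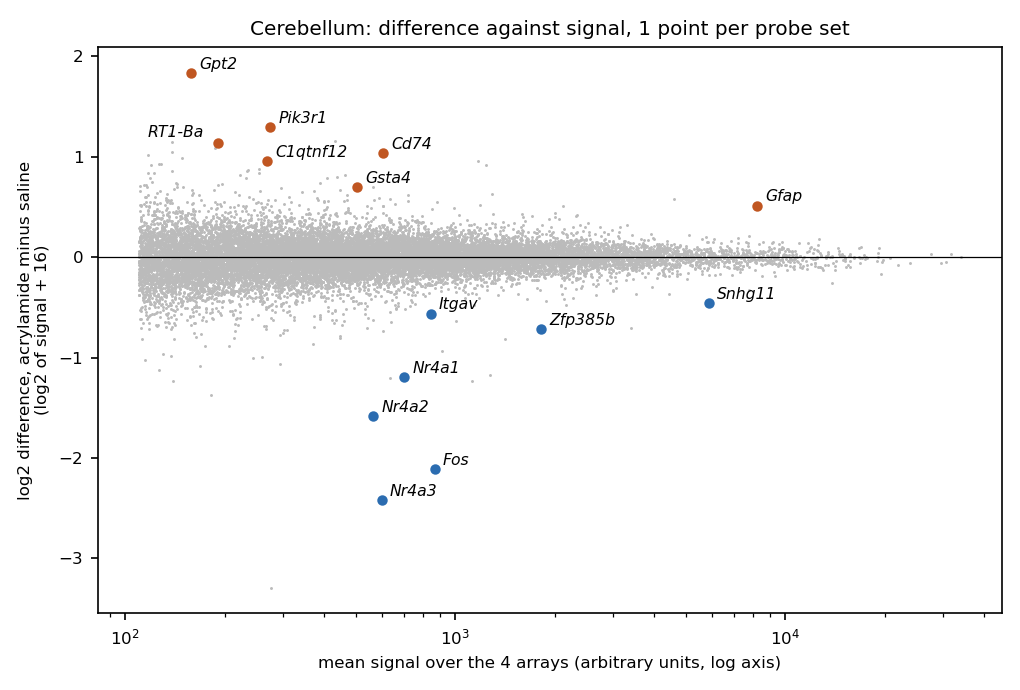
Log2 difference between acrylamide and saline cerebellum (vertical axis, log2 of signal + 16) against the mean signal of the 4 arrays (horizontal, log axis), 1 grey point for each of the 18905 probe sets. Named genes are marked, blue where lower and orange where higher with acrylamide; Nr4a3 at -2.42 ± 0.17 is the called one, and the grey cloud narrows as the signal rises.

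Immediate early genes were lower in acrylamide cerebellum, and Nr4a3 and Fos had the largest differences of any named genes. Values are given throughout for saline arrays 1 and 2 against acrylamide arrays 1 and 2, and an error is the SE from limma with n = 2 against 2. Of 38 genes listed, 35 were on the arrays and 25 passed the filter; 16 were lower and 9 higher, with a median log2 difference of -0.20 against 0.0046 over all genes. Both acrylamide arrays were below both saline arrays for 14 and above them for 5. At an unadjusted p under 0.05, 9 were lower and 3 higher, and Nr4a3 alone was called.

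The 3 Nr4a genes encode nuclear receptors that act without a ligand and are switched on by cAMP and calcium signals. Nr4a3 (1369067_at) had signals of 1114 and 920.3 on saline arrays 1 and 2 and of 210.0 and 148 on acrylamide arrays 1 and 2. The lower saline array was far above the higher acrylamide array, and Nr4a3 fell by 2.42 ± 0.17 on the log2 scale (limma adjusted p = 0.00296). Its other probe sets had differences of -1.06 ± 0.17, without overlap, and -0.63 ± 0.28, with overlap. The call was lost with no filter (adjusted p = 0.122), with eBayes without an intensity trend (0.209) and in a fit that took its spread from all 12 arrays (0.495). Nr4a2 had signals of 893 and 795 in saline and 369 and 198 in acrylamide arrays. Acrylamide array 2 was the lowest and the groups did not overlap, with a difference of -1.58 ± 0.23 (limma adjusted p = 0.202) and of -1.37 ± 0.30 at its second probe set, which passed through the saline arrays. Nr4a1 had signals of 1268 and 711 against 459 and 359, a difference of -1.20 ± 0.23 with saline array 1 the highest.

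Fos, which encodes the partner of Jun in the AP-1 factor, was lower on both acrylamide arrays but varied within both groups. Its signals were 1840.0 and 959 in saline and 482 and 179 in acrylamide arrays. Array 1 was the higher of each group, the groups did not overlap, and the difference was -2.11 ± 0.40 (limma adjusted p = 0.255). Ier2, a small nuclear regulator, had signals of 267 and 278 against 147 and 134, with close arrays in each group and a difference of -0.88 ± 0.16. Klf2, a zinc finger factor also made by endothelium, had signals of 542 and 427 against 270.2 and 245 and a difference of -0.86 ± 0.15, while its other probe set had -0.046 ± 0.17.

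Dusp1, a phosphatase that inactivates MAP kinases, had signals of 2366 and 1283 against 772 and 1247 at its brighter probe set, where saline array 1 was the highest and acrylamide array 2 came close to saline array 2. Its differences were -0.82 ± 0.27 and, at the dimmer probe set, -0.80 ± 0.20. Egr4, a zinc finger factor, was lower (-0.77 ± 0.26). Klf4, Crem, Egr1 and Jun had differences of -0.36, -0.26, -0.20 and -0.19, with groups that did not overlap and unadjusted p-values above 0.05. Arc, Junb, Jund, Dusp5 and Klf6 overlapped, with differences between -0.015 and 0.054.

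Fewer members were higher than lower. Bdnf, which encodes brain-derived neurotrophic factor, had signals of 219 and 213 in saline and 303 and 312 in acrylamide arrays, a difference of 0.48 ± 0.15. Ier5 had 644 and 624 against 846 and 846, and the ERK phosphatase gene Dusp6 had 570.1 and 593 against 769 and 759. In these 3 the arrays of a group nearly coincided, and none passed adjustment over all probe sets. Dusp6 had 0.38 ± 0.10 there, 0.93 ± 0.21 at a dimmer probe set that passed through the acrylamide arrays, and 0.087 ± 0.20 with overlap at its remaining probe set.

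**Figure D2:**
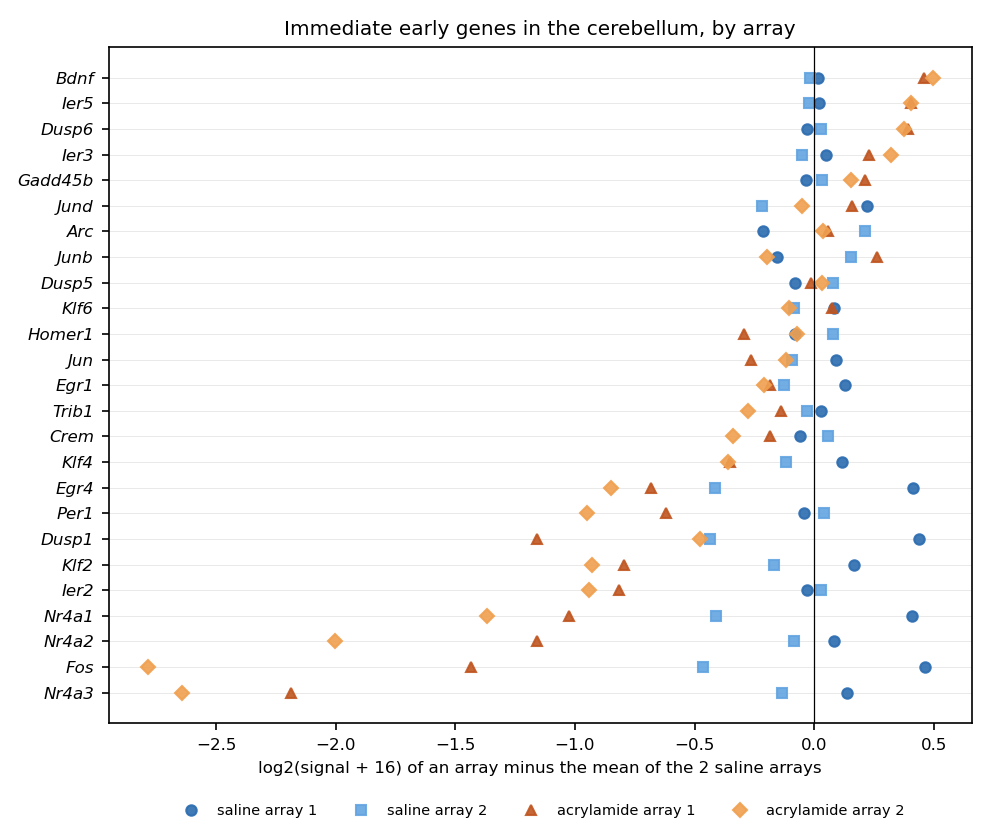
The 25 immediate early genes that passed the filter, 1 row each at the brightest probe set, with log2(signal + 16) of every array minus the mean of the saline arrays on the horizontal axis. Blue marks are the saline arrays and orange marks the acrylamide arrays; for the 14 genes from Nr4a3 to Jun both orange marks lie to the left of the blue, and for the 5 from Gadd45b to Bdnf to the right.

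The promoters of immediate early genes that were lower are shown because most of these members lay on the same side and several are known targets of CREB. RefSeq promoter windows (rat assembly GRCr8, 250 bases before to 50 after the start) were matched by symbol for 18 of the 25 members. No window was matched for Nr4a3, Fos, Klf2, Jun, Ier3, Trib1 or Arc, so these members, several of the lower ones among them, were not examined. Letters TGACG, the core of the cAMP response element, or CGTCA, the same on the other strand, are in capitals, and so is the full element TGACGTCA, which contains the core on both strands.
Nr4a1, chr7:134259888-134260187, + strand: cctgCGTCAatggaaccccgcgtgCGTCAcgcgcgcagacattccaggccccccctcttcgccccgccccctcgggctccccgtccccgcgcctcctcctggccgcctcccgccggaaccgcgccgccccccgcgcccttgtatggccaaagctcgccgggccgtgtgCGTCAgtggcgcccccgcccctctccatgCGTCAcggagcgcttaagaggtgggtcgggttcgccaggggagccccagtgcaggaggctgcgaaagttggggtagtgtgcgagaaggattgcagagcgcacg
Dusp1, chr10:17184603-17184902, + strand: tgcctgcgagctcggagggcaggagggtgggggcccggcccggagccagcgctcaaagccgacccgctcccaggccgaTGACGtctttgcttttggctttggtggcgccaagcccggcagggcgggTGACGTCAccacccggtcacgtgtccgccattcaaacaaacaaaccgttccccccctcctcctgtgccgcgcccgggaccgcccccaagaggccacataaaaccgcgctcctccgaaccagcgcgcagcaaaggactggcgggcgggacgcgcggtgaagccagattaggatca
Ier2, chr19:40399123-40399422, + strand: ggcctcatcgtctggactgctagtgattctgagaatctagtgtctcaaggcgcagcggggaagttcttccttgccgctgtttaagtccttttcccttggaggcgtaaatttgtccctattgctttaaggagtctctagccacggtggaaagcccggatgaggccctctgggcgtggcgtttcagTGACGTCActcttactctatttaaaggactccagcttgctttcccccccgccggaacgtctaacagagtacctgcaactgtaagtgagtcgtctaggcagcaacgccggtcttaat
The core was in 11 of the 18 windows, against 21.96% of 27457 promoters in the table and 32.91% of the 8428 that belong to tested genes. It was in 7 of the 9 windows of members with both acrylamide arrays below (Nr4a1, Nr4a2, Dusp1, Ier2, Egr1, Egr4 and Crem), in 1 of 4 with both above and in 3 of 5 that overlapped. The full element was in 3 of 18, against 1.91% and 3.37%. A match to letters is a description of the window and not a measured site.

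Genes of antigen presentation by MHC class II were higher, and their median was the highest of the 64 lists described. Of 12 listed, 8 were on the arrays and 6 passed the filter; all 6 were higher, 5 without overlap and 4 at an unadjusted p under 0.05, and their median difference was 0.88. No member was called. Cd74, the invariant chain that escorts class II molecules, had signals of 469 and 319 in saline and 790.3 and 836 in acrylamide arrays. The acrylamide arrays nearly coincided above both saline arrays, with a difference of 1.04 ± 0.16 (limma adjusted p = 0.242). RT1-Da, a class II alpha chain, had signals of 288 and 171 against 425 and 568 and a difference of 1.09 ± 0.23. RT1-Ba, another alpha chain, had 132 and 97 against 278 and 259 at the probe set tested in the list (1.14 ± 0.19), and differences of -0.49 ± 0.44 and 0.29 ± 0.35 at its 2 other probe sets, so these disagree in sign.

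Saline array 2 was the lowest of the 4 for most class II genes. RT1-Bb, a beta chain, showed this most, with 265 and 62.3 in saline and 213 and 245 in acrylamide arrays, and its groups overlapped; without saline array 2 its difference was -0.20. Without saline array 1 the median of the list was 1.32 and without saline array 2 it was 0.62. RT1-DMb, which loads peptides, had a difference of 0.60 ± 0.16, and RT1-DMa of 0.19 ± 0.14.

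Most microglial genes that passed the filter were higher on both acrylamide arrays. Of 32 listed, 26 were on the arrays and 20 passed the filter; 19 were higher and 1 lower, 15 lay above and 1 below without overlap, 11 had an unadjusted p under 0.05, and the median was 0.42. Of the 20, 7 had a saline mean under 110 and passed through the acrylamide arrays, where they had to be higher, so these counts do not stand for the whole list; with the filter at 220 the median was 0.42. With any array left out it stayed between 0.35 and 0.44. Csf1r, the receptor that keeps microglia alive, had signals of 404 and 385 in saline and 537 and 568 in acrylamide arrays, with no overlap and a difference of 0.47 ± 0.12. Aif1, the calcium-binding protein known as Iba1, had 96.1 and 109 against 203 and 163, a difference of 0.74 ± 0.20. Cd53, a tetraspanin, and the adaptors Tyrobp and Fcer1g differed by 0.66 ± 0.15, 0.68 ± 0.20 and 0.51 ± 0.14, and the integrin chain Itgam by 0.86 ± 0.26. Aif1, Tyrobp and Itgam are among the 7 that passed through the acrylamide arrays.

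Cx3cr1, P2ry12 and Tmem119, receptors and a membrane protein typical of resting microglia, had differences of 0.14 ± 0.18, 0.22 ± 0.16 and -0.056 ± 0.19. The groups overlapped for Cx3cr1. P2ry12 was higher without overlap, but by little (246.2 on saline array 1 against 246.7 on acrylamide array 2). Tmem119 was lower without overlap, also by little (131.5 on saline array 2 against 131.3 on acrylamide array 1). The signals of these 3 probe sets lay between 129 and 297. Among complement genes, 9 of 10 were higher with a median of 0.24 (0.14 with the filter at 220). Some genes count in both the microglial and the complement list, C1qb and Itgam among them. C1qb had 379 and 352 against 458 and 537 (0.42 ± 0.13) and C3, the hub of the cascade, 465 and 553 against 626 and 764 (0.44 ± 0.14).

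Of 17 genes of border and infiltrating macrophages on the arrays, 7 passed the filter and 6 of these were higher. Of the 7, 2 (Lgals3 and Cd14) passed through the acrylamide arrays, where they had to be higher. Without overlap, 2 lay above and 1 below. The median was 0.19, or 0.40 without saline array 1 and 0.094 without saline array 2. Gpnmb, a glycoprotein of phagocytes loaded with lipid, had signals of 148 and 168 in saline and 308 and 270.4 in acrylamide arrays, a difference of 0.81 ± 0.17. Lgals3, a galectin of active phagocytes, had 113 and 73.8 against 254 and 154, without overlap but with a wide spread in each group (0.99 ± 0.27), and passed the filter through the acrylamide arrays. Over the 17 listed genes on the arrays, the signal ran from Cd163 at 1.84 to 22.1 and Ccr2 at 2.85 to 20 up to the lysozyme gene Lyz2 at 1009 to 1726. The groups overlapped for Lyz2 and Spp1, and for the mannose receptor gene Mrc1 (166 and 114 against 133 and 158). The T cell markers Cd3e, Cd3g and Cd3d were at signals of 5.57 to 65.5, under the filter. The haemoglobin gene Hbb was highest on saline array 2 (11960.0) and between 8059.5 and 8794 on the 3 others, and S100a9 of neutrophils was highest on saline array 1 (252, against 51.9 to 129). The part of blood cells and macrophages in the class II and microglial differences was not tested.

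Interferon-induced genes were mostly higher. Of 55 listed, 45 were on the arrays and 33 passed the filter; 28 were higher and 5 lower, 19 lay above and 1 below without overlap, 11 were higher at an unadjusted p under 0.05, and the median was 0.29. Of the 33, 5 passed through the acrylamide arrays and 1 through the saline arrays, and with the filter at 220 the median was 0.18. Ifitm3, which blocks virus entry, had signals of 510.1 and 619.6 in saline and 860.5 and 887 in acrylamide arrays and a difference of 0.62 ± 0.12. Mx2, an antiviral dynamin-like protein, had 203 and 126 against 293 and 311, a difference of 0.85 ± 0.21 with saline array 2 the lowest. Isg15, a ubiquitin-like protein, differed by 0.65 ± 0.20. Usp18 and Gbp2 differed by 0.73 ± 0.22 and 0.70 ± 0.20, and both passed through the acrylamide arrays. Irf9 and Stat2, which transmit the interferon signal, had -0.084 ± 0.14 and 0.18 ± 0.11. Of 10 MHC class I genes 9 were higher, with a median of 0.15 (0.24 without saline array 2) and B2m, the light chain, at 0.095 ± 0.067; many probe sets of this family can bind several of its members.

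Genes of the meninges and fibroblasts were higher as well. Of 27 that passed the filter, 23 were higher, 14 of them without overlap, and none was lower without overlap; the median was 0.21. It was 0.30 without saline array 1 and 0.086 without saline array 2, on which collagens were lowest (Col1a1 at 897 and 527 in saline and 862 and 905 in acrylamide arrays). Igf2, a growth factor of the meninges, had 2218 and 2011 against 2529 and 2762, a difference of 0.32 ± 0.084, and Ogn, a small proteoglycan, 0.37 ± 0.12. The summed signal of the 33 listed genes on the arrays was 31949 and 29017 in saline and 33219 and 34360.0 in acrylamide arrays. The part of dissected meninges in the class II and macrophage differences was not tested. Of choroid plexus genes 5 of 15 were higher, and Ttr had 13811 and 18039 against 14536 and 16308, with groups that overlapped.

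**Figure D3:**
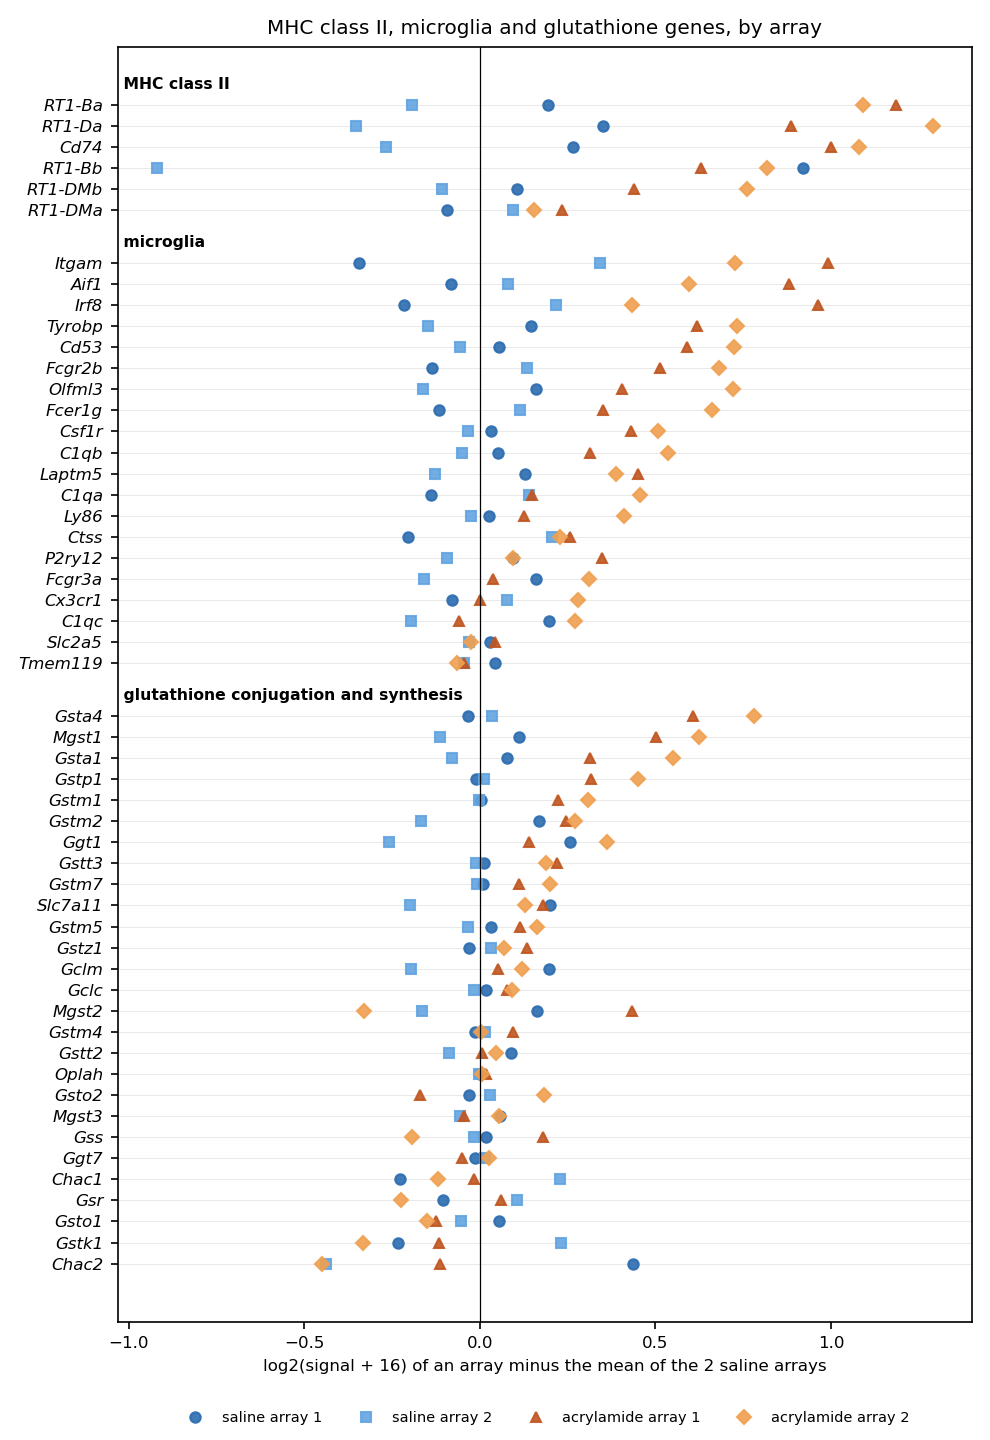
Genes of MHC class II, microglia and glutathione metabolism that passed the filter, at the brightest probe set, with log2(signal + 16) of every array minus the mean of the saline arrays on the horizontal axis. Blue marks are saline and orange marks acrylamide arrays; saline array 2 (light blue squares) lies leftmost for 5 of the 6 class II genes, and Slc2a5 and Tmem119 sit near 0.

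Glutathione transferases, the enzymes that couple electrophiles to glutathione, were higher in part. Of 33 genes of glutathione conjugation and synthesis, 31 were on the arrays and 27 passed the filter; 20 were higher and 7 lower, 12 lay above and 1 below without overlap, and 5 were higher and 0 lower at an unadjusted p under 0.05. The median was small, 0.083, and was 0.16 without saline array 1 and 0.037 without saline array 2. Gsta4, which clears lipid aldehydes, had signals of 370.0 and 389 in saline and 586 and 663 in acrylamide arrays, with tight groups far apart and a difference of 0.69 ± 0.12 (limma adjusted p = 0.255). Mgst1, a membrane-bound transferase, had 623 and 531 against 821 and 894 (0.56 ± 0.11). Gstp1, which is abundant in brain glia, had 1771 and 1798 against 2224 and 2442 (0.38 ± 0.080), and Gsta1 and Gstm1 differed by 0.43 ± 0.10 and 0.26 ± 0.074.

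Genes that make glutathione differed little. Gclc and Gclm, the subunits of the rate-limiting ligase, had 0.083 ± 0.10 and 0.086 ± 0.16, the synthase Gss -0.0072 ± 0.17, and the reductase Gsr -0.083 ± 0.18. The cystine carrier Slc7a11 had 0.16 ± 0.14 with overlap. Other NRF2 targets had a median of 0.072 over 22 genes (0.0084 without acrylamide array 1) with 0 at an unadjusted p under 0.05, and peroxide and superoxide enzymes had 0.010 over 24, with Sod1 at 0.17 ± 0.070. The 7 genes of acrylamide epoxidation and epoxide hydrolysis had a median of 0.026.

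The Gstp1 promoter is shown because it held letters that match the antioxidant response element and this transferase was higher here. Whether the match is a working site was not tested. The window is from RefSeq (GRCr8), with the match to TGACNNNGC, searched on both strands, in capitals.
Gstp1, chr1:210769656-210769955, - strand: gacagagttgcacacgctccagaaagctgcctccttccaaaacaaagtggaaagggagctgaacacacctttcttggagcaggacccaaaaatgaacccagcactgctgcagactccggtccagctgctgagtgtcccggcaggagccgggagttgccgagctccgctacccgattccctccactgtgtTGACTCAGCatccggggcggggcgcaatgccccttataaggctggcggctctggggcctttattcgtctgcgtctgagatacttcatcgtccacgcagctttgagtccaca
This motif was in 6 of the 23 glutathione genes with a window, against 12.17% of 27457 promoters and 14.57% of the 8428 of tested genes. It was in 5 of the 11 whose acrylamide arrays were both above (Gstp1, Gsta1, Gstm5, Gstm7 and Gstz1), in Gclm among those that overlapped, and not in the windows of Gsta4, Mgst1 and Gstm1.

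Astrocyte genes lay on both sides of 0, with more of them higher. Gfap, the main filament of astrocytes, had signals of 6307 and 7239 in saline and 9836 and 9468 in acrylamide arrays, without overlap, and a difference of 0.51 ± 0.081 (limma adjusted p = 0.242). Vim, an intermediate filament of Bergmann glia, had 2089 and 1901 against 2793 and 2553 (0.42 ± 0.084), the fatty acid-binding protein Fabp7 0.40 ± 0.14 and the gap junction protein Gja1 0.21 ± 0.071. Gdf10, a growth factor of Bergmann glia, was lower, with 1132 and 1137 against 900.2 and 929.8 (-0.31 ± 0.087), and so was the receptor Fgfr3 (-0.28 ± 0.086). The transporter Slc1a3, the water channel Aqp4 and S100b had -0.10 ± 0.078, 0.024 ± 0.072 and 0.033 ± 0.074. Over 29 astrocyte and Bergmann glia genes 21 were higher and 8 lower, 9 above and 4 below without overlap, with a median of 0.051 (0.091 without saline array 2). The reactive astrocyte list had 16 of 22 higher and a median of 0.080 (0.17 without saline array 1 and 0.029 without saline array 2). Of the 22, 2 passed through the acrylamide arrays, where they had to be higher, and 1 through the saline arrays. With the filter at 220 the median was 0.096. S1pr3 had 0.67 ± 0.20, and Nes was lower at -0.62 ± 0.27, where its acrylamide mean was under the filter.

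Lysosomal genes were slightly higher. Of 44 tested, 33 were higher and 11 lower, 18 above and 2 below without overlap, with a median of 0.061; 6 were higher at an unadjusted p under 0.05. Npc2, which carries cholesterol out of lysosomes, had 1751 and 1731 against 2194 and 2105 (0.30 ± 0.075), Grn, the progranulin gene, 0.37 ± 0.11, and the membrane protein Lamp2 0.24 ± 0.073.

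Purkinje cell genes were slightly lower, though the brightest of them barely differed. Of 40 listed, 31 were on the arrays and 28 passed the filter; 23 were lower and 5 higher, 12 below and 0 above without overlap, 4 lower and 0 higher at an unadjusted p under 0.05, with a median of -0.073. Without acrylamide array 1 the median was -0.0091, and without any other array between -0.14 and -0.062. Pcp2 had signals of 12945 and 13646 in saline and 13242 and 13909 in acrylamide arrays, which overlapped (0.030 ± 0.070). Calb1, the calcium buffer, had 12154 and 12232 against 11192 and 12126 (-0.066 ± 0.071), Itpr1, the IP3 receptor, -0.056 ± 0.078 and Car8, which inhibits that receptor, -0.091 ± 0.080. Itpka, an IP3 kinase of dendritic spines, had 909 and 960.1 against 748 and 787 (-0.28 ± 0.094), and Plcb3, a phospholipase, had 239.5 and 227 against 194 and 117 (-0.58 ± 0.22).

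Granule neuron genes lay on both sides of 0. Of 31 tested, 18 were higher and 13 lower, with a median of 0.023. Gabra6 had 13645 and 13500.0 against 12267 and 12577, lower without overlap (-0.13 ± 0.066), while Grin2c, the NMDA receptor subunit of mature granule neurons, had 2356 and 2268 against 2747 and 2775, higher without overlap (0.25 ± 0.072). The glutamate receptor genes were otherwise mostly lower, 12 of 16, with a median of -0.078 (-0.021 without saline array 2), Grik2 at -0.21 ± 0.088 and Gria2 at -0.10 ± 0.069. Eomes, a transcription factor of unipolar brush cells, had 322 and 375 in saline and 199 and 139 in acrylamide arrays, without overlap (-1.0 ± 0.19, and -0.56 ± 0.20 at a second probe set).

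Genes of axonal transport motors had a median near 0. Of 36 kinesin and dynein genes, 23 were lower and 13 higher, 13 below and 4 above without overlap, and the median was -0.020; 1 was lower and 0 higher at an unadjusted p under 0.05. The 3 heavy chains of kinesin-1, which drives transport away from the cell body, were all lower without overlap. Kif5a had 4449 and 4606 against 4154 and 3926 (-0.16 ± 0.071), Kif5b had 4909 and 4635 against 4317 and 4255 (-0.15 ± 0.070), and Kif5c had 2120.1 and 2328 against 2025 and 1903 (-0.18 ± 0.082). Neurofilament, tubulin and microtubule genes had a median of 0.011 over 33 and synaptic vesicle genes had 0.011 over 42.

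Oligodendrocyte genes had a median near 0 (-0.0028 over 35), with 17 higher and 18 lower. The 5 at an unadjusted p under 0.05 were all lower and included Mog, a surface protein of myelin, with 1934 and 2106 in saline and 1546 and 1657 in acrylamide arrays (-0.33 ± 0.084). Ugt8 and Fa2h, enzymes of myelin sphingolipids, differed by -0.32 ± 0.10 and -0.28 ± 0.11, and the lineage factor Olig1 by -0.29 ± 0.10. Cholesterol synthesis genes were lower in 16 of 21, with a median of -0.094 (-0.047 without saline array 2) and the sterol demethylase Cyp51 at -0.23 ± 0.076.

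Clock genes and targets of glucocorticoids included several of the lower genes. Per1 and Dusp1 were also counted among the immediate early genes, and Dusp1 was the lowest of the glucocorticoid-induced list. Per1, a repressor in the circadian clock that is also induced by glucocorticoids and by CREB, had signals of 554 and 588 in saline and 366 and 287 in acrylamide arrays, without overlap (-0.79 ± 0.14). Per2 had -0.51 ± 0.14, and Nr1d1, the REV-ERB alpha repressor, was higher with 393 and 388 against 514 and 561 (0.44 ± 0.12). Bmal1 and Clock, which drive the cycle, had 0.052 ± 0.11 and 0.028 ± 0.083. The hour of collection is not in the labels, and its part in these differences was not tested. Of 25 glucocorticoid-induced genes 20 were lower, 9 of them without overlap, with a median of -0.083 (-0.16 without acrylamide array 1 and 0.0032 without acrylamide array 2), and the classical members Sgk1, Fkbp5 and Tsc22d3 had -0.094 ± 0.081, -0.013 ± 0.16 and -0.16 ± 0.082.

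Lists of basic cell functions had medians near 0, with members on both sides. The medians were 0.011 over 42 cytosolic ribosomal protein genes, 0.014 over 73 genes of the respiratory chain, 0.025 over 36 proteasome genes and -0.0015 over 202 solute carriers. Heat shock genes had -0.015 over 32, genes of the unfolded protein response 0.016 over 30 and genes of axon injury and regrowth -0.016 over 18. The proteasome list had 12 members above and 4 below without overlap, with 3 higher and 1 lower at an unadjusted p under 0.05; the interferon-induced subunit gene Psmb8 was the highest at 0.57 ± 0.18. Medians this close to 0 changed sign with an array left out for several of these lists, ranging from -0.013 to 0.052 for ribosomal proteins.

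**Figure D4:**
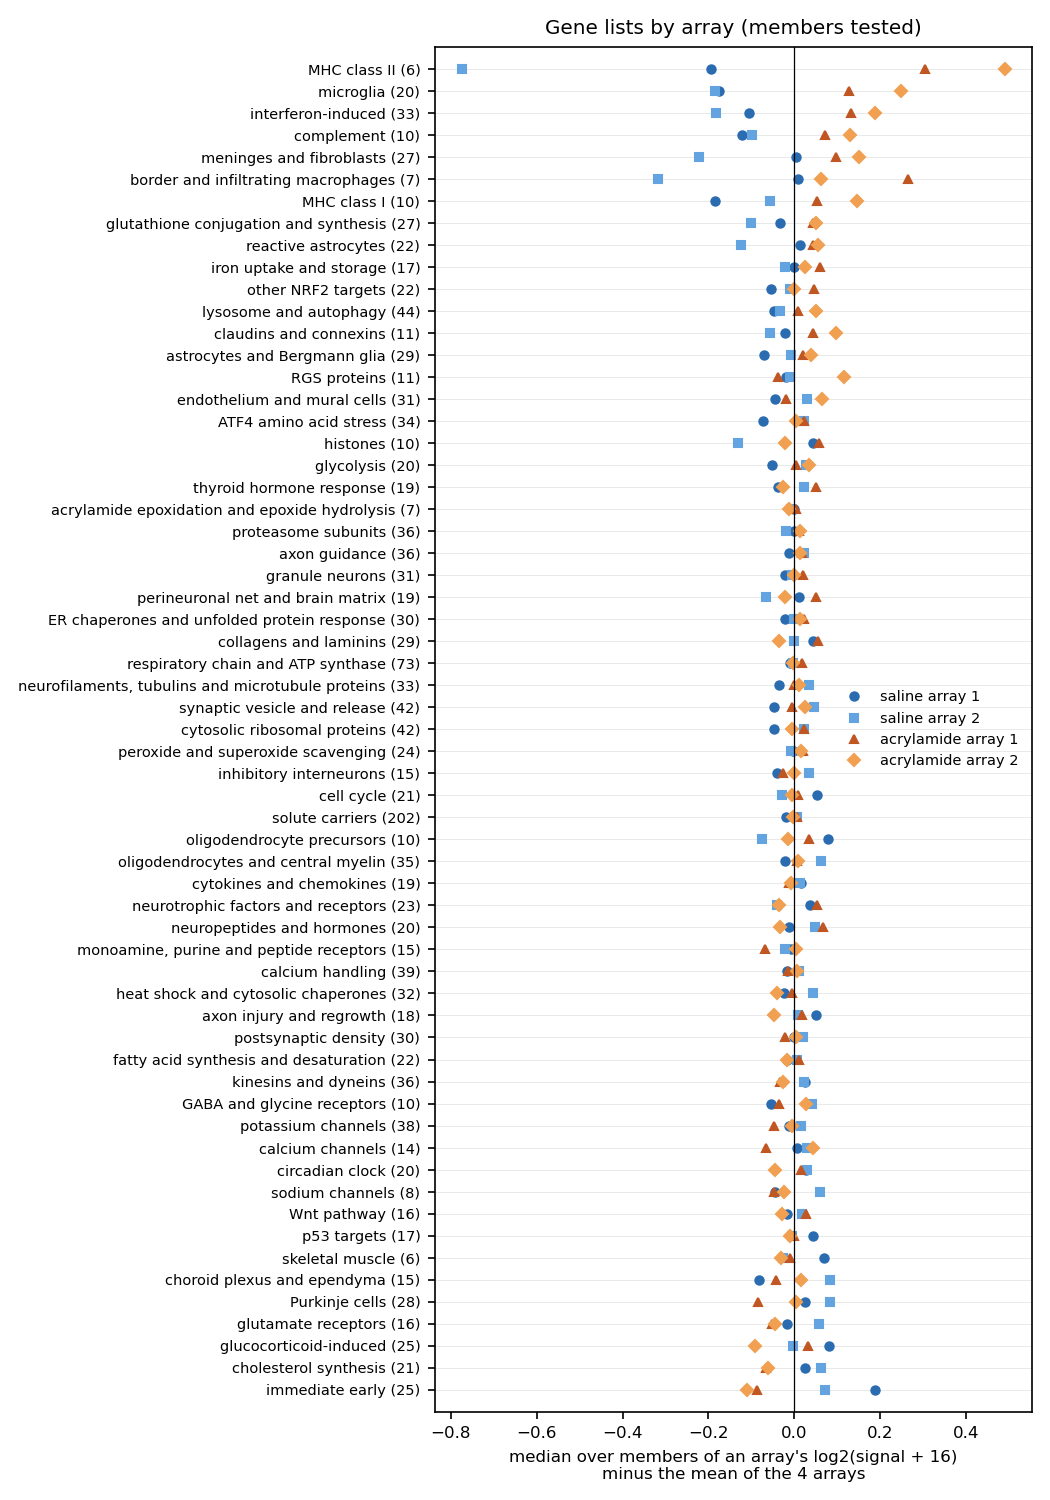
Median over the tested members of each gene list (their number in brackets) of an array's log2(signal + 16) minus the mean of the 4 cerebellum arrays, ordered by the difference between acrylamide and saline. Some lists share members. The lists with the fewest tested members (brainstem and deep nuclei neurons, blood cells and Schwann cells) are not shown. Blue marks are saline and orange marks acrylamide arrays; MHC class II, microglia, interferon-induced and complement genes at the top and immediate early genes at the bottom have blue and orange apart, and most lists lie within 0.1 of 0.

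Among the other genes, the largest differences upward were at dim probe sets. Gpt2, the mitochondrial alanine aminotransferase gene, had signals of 54.7 and 66.3 in saline and 254 and 259 in acrylamide arrays at probe set 1382232_at. The groups were tight and far apart (1.84 ± 0.20, limma adjusted p = 0.0528), but the saline arrays were under the filter and the gene's other probe set, 1384903_at, had -0.0041 ± 0.22. Pik3r1, the regulatory subunit of PI 3-kinase, had 107 and 207 against 349.6 and 437 (1.29 ± 0.26). C1qtnf12, a secreted relative of adiponectin, had 175 and 179.6 against 329.6 and 391 (0.95 ± 0.16). Phactr3, a binder of actin and protein phosphatase, had 1.09 ± 0.19 at the named probe set and 0.071 ± 0.077 at the other, and Sncg, gamma-synuclein, had 226 and 718 against 986 and 795, where saline array 1 alone was low.

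Among the other lower genes, several were measured at bright or repeated probe sets. Itgav, the alpha V integrin chain, was lower without overlap at 3 probe sets, with differences of -0.56, -0.88 and -1.02, the last at a probe set that passed through the saline arrays. Its brightest had 1035 and 979 against 696 and 658. Snhg11, a neuronal long noncoding RNA, had 7222 and 6348 against 5073 and 4775 (-0.46 ± 0.082). Cav2, a caveolin on the endothelium list, had 672 and 694 against 408 and 469.9 (-0.62 ± 0.12), -1.09 ± 0.22 at a second probe set that passed through the saline arrays and 0.029 ± 0.20 at its remaining probe set. Zfp385b, a zinc finger gene, had 2492 and 2059.8 against 1333 and 1406 (-0.72 ± 0.10) at the named probe set and 0.35 ± 0.21 at the other, and the RNA helicase gene Ddx3x had -0.94 ± 0.18 and 0.020 ± 0.068, so in both the probe sets disagree.

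Further genes with large differences varied in how close the arrays of a group were. Cryl1, a dehydrogenase of sugar metabolism, had 32.6 and 109 against 131 and 224 (1.26 ± 0.41), saline array 1 was the lowest, and it passed through the acrylamide arrays. Tpcn2, a cation channel of lysosomes, had close saline arrays at 72.5 and 71.2 against 142 and 184 (1.01 ± 0.22), and the saline arrays were under the filter. Pde8a, a phosphodiesterase that breaks down cAMP, had 326 and 309 against 254 and 86.4 (-1.0 ± 0.36), and acrylamide array 2 was far below acrylamide array 1. Tbccd1 differed by 1.15 ± 0.35, Rsu1 by -0.81 ± 0.24 and Tbl2 by -0.99 ± 0.25, with a difference of 0.22 ± 0.15 at the other Tbl2 probe set; Tbccd1 passed through the acrylamide arrays, and Rsu1 and Tbl2 through the saline arrays. Macroh2a1, a histone variant gene, had 1429.8 and 1487 against 1989 and 1906 (0.41 ± 0.078), higher without overlap at a bright probe set.

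Different probe sets of a gene did not always share a direction. Of the 98 genes at least 1.5-fold apart without overlap, 42 had another tested probe set, and 39 of these 60 others (65%) had the same sign. Of the 60, 20 (33.3%) lay on the same side without overlap, against 17.1% above and 16.6% below over all probe sets. Over all 5200 pairs of probe sets of the same gene, 55.4% had the same sign. The largest difference of all was at 1395705_at, which has no gene symbol here, with signals of 506 and 474 in saline and 2.98 and 124 in acrylamide arrays (-3.29 ± 0.70, limma adjusted p = 0.345). Of the 26 probe sets at least 2-fold apart without overlap, 7 had no single symbol and 6 of these were lower, among them 1371776_at and 1395745_at at -1.23 ± 0.23 and -1.17 ± 0.17.

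Single arrays differed within a group about as much as between groups. The median size of the log2 difference was 0.13 between the saline arrays and 0.12 between the acrylamide arrays, against 0.12 to 0.14 for the 4 pairs of an acrylamide with a saline array. At least 2-fold apart were 63 probe sets in the saline pair and 50 in the acrylamide pair, against 50 to 79 across groups. Differences between array pairs that share no array were weakly related across the 18905 probe sets, which are not independent and share their arrays' scaling. Acrylamide 1 minus saline 1 correlated with acrylamide 2 minus saline 2 at r = 0.10, and acrylamide 1 minus saline 2 with acrylamide 2 minus saline 1 at r = 0.011. The difference between the saline arrays correlated with that between the acrylamide arrays of the same numbers at r = 0.093. This is not a separate observation, because its covariance equals that behind r = 0.10 minus that behind r = 0.011.

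**Figure D5:**
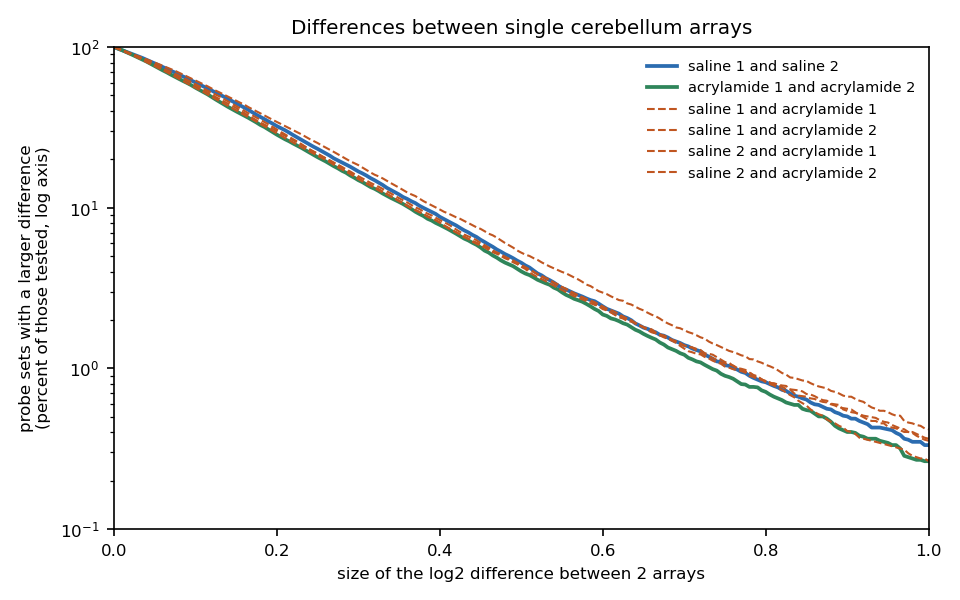
Percent of the 18905 probe sets (vertical axis, log scale) whose log2 difference between 2 arrays exceeds the size on the horizontal axis. Solid lines are pairs within a group and dashed orange lines pairs of an acrylamide with a saline array; the lines run together, with medians of 0.12 to 0.14 in all 6 pairs.

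Some genes differed most between arrays of the same group. Gatad2b, a chromatin factor gene, had 146 and 566 in saline and 496 and 539 in acrylamide arrays, with saline array 1 the odd one. Zfp212 had 326 and 75.8 against 324 and 294, with saline array 2 the odd one. Rph3al, a regulator of exocytosis, had 113 and 129.5 against 30.3 and 222, with acrylamide array 1 lowest and acrylamide array 2 highest.

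No gene was shown to respond differently in the cerebellum than in the other tissues of the series. In a limma fit of all 12 arrays, the difference in response from the spinal cord passed adjustment for 0 of 17398 probe sets, with 317 (1.82%) at an unadjusted p under 0.05. The difference from the sciatic nerve passed for 0 of 16360, with 560 (3.42%). Both shares are lower than the p threshold itself would give without any difference, so the test was conservative. The nerve arrays also differ between replicates in muscle, fat and cerebellum-restricted transcripts. A lack of calls therefore does not show that the tissues respond alike. Nr4a3 had log2 differences of -0.31 ± 0.32 in the cord and 0.79 ± 0.32 in the nerve, and the difference between cerebellum and nerve had a limma adjusted p of 0.36 (unadjusted p = 5.82e-05). Gsta4 had -0.18 and -0.15 in cord and nerve, where C1qtnf12 had -0.10 and 0.057. The median of the whole glutathione list was 0.087 in the cord and 0.11 in the nerve, against 0.083 in the cerebellum. Pik3r1 was higher in each tissue, by 1.92 in the cord and 1.83 in the nerve. The median of the microglial list was 0.38 in the cord and 0.18 in the nerve, and that of the class II genes 0.39 and 0.15.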

How the data were processed

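Cerebellum RNA was measured on 4 Affymetrix rat arrays of 31099 probe sets. The deposited values are linear signal intensities; for their making, the submitters' processing notes name GCOS 1.1. Which algorithm and target scaling it ran was not given in the sources used here. The 57 control probe sets were left out, and probe sets with a mean signal above 110 over the 4 arrays were kept. Values were taken as log2(signal + 16), which understates the change of dim probe sets, and fitted with limma 3.58.1 in R 4.3.3 (lmFit, eBayes with an intensity trend, 2-sided, Benjamini-Hochberg over all 18905 probe sets). Labels do not say whether pools came from separate litters, so p-values measure only the spread between pools. A list is described by its counts and median, with the brightest probe set of each gene. Lists can share members, so their counts are not independent. Of the probe sets, 20826 had 1 gene symbol from the platform annotation, updated by gene ID, 436 had several and 9780 had none.

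Genes were named by rule: the 12 with the largest difference in each direction among those without overlap at an unadjusted p under 0.05, the 6 smallest p-values a direction, up to 5 members of each list with the smallest p, and the 5 that differed most between arrays of the same group. Other list members are named for their role, after their values were seen. The comparison, the lists and the tests were chosen with earlier results of these data known. The fit was tested on simulated data. Alternatives were the normalization, pseudocount, filter, eBayes settings, replicate block, 1 probe set per gene, all 12 arrays and leaving out each array.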

Additional observations from a re-analysis of the deposited data

How the results depend on the processing

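The cerebellum arrays number 2 a group, which leaves 2 residual degrees of freedom, and differences at signals near the filter are the least precise. Fits with a replicate block or with an array left out have fewer degrees of freedom, so their counts of calls are less certain. Probe sets passing adjusted p numbered 1. They numbered 2 after median centring, with a pseudocount of 64, with robust eBayes and at an adjusted p of 0.1, and 3 among 10062 genes with 1 probe set each. With limma they numbered 0 with no filter, where 1605 had an unadjusted p under 0.05, 0 with eBayes without a trend, and 0 with the spread of all 12 arrays, where 522 had one. With any array left out they numbered 3 to 249 (138 without saline array 1, 249 without saline array 2, 3 without acrylamide array 1 and 4 without acrylamide array 2), with 735 to 1873 at an unadjusted p under 0.05, where the lone array is assumed to vary like the other group. When the fit was repeated on 1 probe set per gene alone, 616 had an unadjusted p under 0.05, against 515 of the same genes in the fit of all probe sets, where 999 probe sets had one. Probe sets at least 1.5-fold apart without overlap numbered 154, and 74 with a pseudocount of 64, 1514 with no filter and 70 with a filter of 220. With no filter the correlation of differences between arrays of the same number was 0.026.

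The replicate numbers of the arrays are a number only, since no label says what they mark and there are 2 pairs. The deviations of arrays with the same number correlated at r = 0.093 over 18905 probe sets, and 0.023 with no filter. With the replicate number as a block, which leaves fewer residual degrees of freedom, 47 probe sets passed adjusted p against 1 without the block.

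The differences of 120 named probe sets had 1766 values under the alternatives, of which 29 had the other sign, 98 newly passed adjustment and 3 no longer did, these being Nr4a3. The cause of the sign changes was not tested, and none of these probe sets was called. With any array left out, the differences lay for RT1-Bb between -0.20 and 1.64, Jund between -0.17 and 0.27, Klf6 between -0.10 and 0.075 and Gclm between -0.11 and 0.28. They lay for Gss between -0.19 and 0.18, Gsr between -0.23 and 0.060, Slc7a11 between -0.044 and 0.35 and Irf9 between -0.20 and 0.035. The range was for Cx3cr1 between -0.00024 and 0.28, Aqp4 between -0.035 and 0.084, S100b between -0.036 and 0.10 and Fkbp5 between -0.14 and 0.11. The values lay for Pcp2 between -0.0079 and 0.068, Itpr1 between -0.12 and 0.0086, Ttr between -0.23 and 0.16 and Col1a1 between -0.022 and 0.73. The second Gpt2 probe set (1384903_at) had 0.0061 after quantile normalization and 0.0026 after median centring, and -0.25 to 0.24 with any array left out. Of 704 list medians under the alternatives, 116 moved by more than the spread between replicates. The differences from the cord and the nerve passed for 0 probe sets under every alternative run, which does not show that the tissues respond alike.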
